A study of Mus musculus with 6 samples.

Results

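The splicing factor genes were the 51 genes whose symbol starts with Srsf and a number, with Hnrnp, with Sf3a or Sf3b and a number, or with Snrp and a letter from a to g, out of 35974 gene names in the merged transcriptome. Names containing Snrpn were left out. The members comprised 11 SR protein genes, 20 hnRNP genes, 3 SF3a genes, 6 SF3b genes and 11 genes for snRNP core, U1 and U2 proteins. They carried 281 of the 114412 transcripts. Of these, 201 were RefSeq coding transcripts, 32 were RefSeq non-coding transcripts and 48 were assembled by StringTie without a RefSeq identifier (names starting with MSTRG). In each pool, the members held between 1.06% and 1.16% of all counts.

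RNA was sequenced from ovaries of C57Bl6j mouse embryos at E15.5 (E, embryonic day), in 3 control pools and 3 pools exposed to panobinostat (PB), an inhibitor of histone deacetylases. The groups follow the sample titles and treatment labels, whereas the design text describes all 6 libraries, the control ones included, as coming from exposed mice. Pregnant females received PB by gavage at 5 mg/kg, every other day according to the methods and per day according to the labels, from E6.5 to E15.5, and control females received DMSO and water. The embryos were therefore exposed through the mother, and the number of ovaries in a pool is given as 4, as 6 to 8 or as at least 8 depending on the source. The total counts ranged from 97165644 to 125985399 per pool. The ovary label was compared with marker genes, and all 8 pregranulosa cell markers and all 8 germ cell markers were measured, with summed levels of 1081 to 1203 CPM (counts scaled to the library size) and of 643 to 1130 CPM. The summed Sertoli cell markers were at 19.7 to 24.8 CPM. Red blood cell markers ranged from 15033 to 31933 CPM in control and from 18342 to 20105 CPM in PB pools, and their part in the results was not tested. No marker list held a gene that passed the test described below. In such bulk samples, fewer cells of a type and less RNA per cell cannot be told apart.

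Splicing removes introns from pre-mRNA in the spliceosome, which is built from small nuclear ribonucleoproteins (snRNPs). The U1 snRNP recognizes the 5′ splice site, and the U2 snRNP, of which SF3a and SF3b are parts, binds the branch point near the 3′ splice site. The Sm proteins encoded by Snrpb, Snrpd1, Snrpd2, Snrpd3, Snrpe, Snrpf and Snrpg form a ring around the snRNAs. SR proteins bind exons and mostly favour their inclusion, whereas hnRNPs bind pre-mRNA widely and often favour exon skipping. Many SR protein genes and hnRNP genes limit their own output by splicing in a poison exon, which brings a premature stop codon, or by keeping or removing an intron, so that the transcript is degraded by nonsense-mediated decay. A change in splicing factor activity can therefore appear in the isoforms of these genes without a change in the sum of their transcripts.

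Sequences of the exons on which the isoform comparisons turned were read from GENCODE M21 (GRCm38, the same assembly as mm10). The extra exons of the RefSeq non-coding isoforms are shown first, from their first base to the first stop codon in the reading frame of the gene, which is in capitals.
Srsf3 NR_036613.1, chr17:29039454-29039487, plus strand: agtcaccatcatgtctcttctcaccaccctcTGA
Srsf7 NR_036615.1, chr17:80205054-80205081, minus strand: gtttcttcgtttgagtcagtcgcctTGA
Srsf9 NR_036616.1, chr5:115331450-115331460, plus strand: aaaactatTAG
The complete extra exons measured 456 bases in Srsf3, 460 bases in Srsf7 and 90 bases in Srsf9. Read from the annotated start codon, the isoforms with these exons had 124, 137 and 120 codons before the stop, compared with 164, 238 and 222 codons in the coding isoforms NM_013663.5, NM_146083.2 and NM_025573.3. Downstream of the early stop lay 3, 5 and 2 exon junctions, the last of them 548, 699 and 252 bases away, whereas the stop codon of each coding isoform lay in its last exon.

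The second set comprises the alternative coding exons of Hnrnpd, which distinguish its known protein isoforms. Each has a length divisible by 3 and keeps the reading frame, and no base is marked in capitals.
Hnrnpd exon near the start of the coding region, chr5:99976534-99976590, minus strand, 57 bases: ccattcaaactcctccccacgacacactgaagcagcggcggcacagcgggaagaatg
Hnrnpd exon near the end of the coding region, chr5:99963731-99963877, minus strand, 147 bases: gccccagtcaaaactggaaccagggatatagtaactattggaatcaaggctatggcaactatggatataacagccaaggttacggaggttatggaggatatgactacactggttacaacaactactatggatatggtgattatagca

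The first comparison asked whether the level of each splicing factor gene, summed over its transcripts, differed between PB and control ovaries. No splicing factor gene passed the threshold of a 2-fold change at a false discovery rate (FDR) of 0.05 over all genes. Most fold changes were estimated within narrow limits. The 51 genes were all tested with the quasi-likelihood test of edgeR, and 0 were called, beside 0.0154% (3 of 19435) of all genes. Without the fold threshold the count was also 0, beside 0.0257% of all genes. DESeq2 also called 0 of the 51. At an unadjusted p under 0.05, 3 of the 51 (5.88%) differed, beside 4.46% of all genes. Of these, 2 were higher and 1 was lower in PB, beside 2.03% and 2.43% of all genes. The smallest FDR of a member was 0.888. The median log2 fold change was -0.014 for the members and 0.0020 for all genes tested.

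The precision was high for most members. The 95% interval of the fold change lay within 2-fold in either direction for 49 of the 51 genes and within 1.5-fold for 48. The median half-width of the interval was 0.13 on the log2 scale. Srsf12 and Hnrnpa3 were the exceptions at 2-fold, and their values are given below. The median coefficient of variation over the 6 pools was 4.44% for the members and 10.7% for all genes tested, which were not matched for level. It was 49.7% for Srsf12 and 59.0% for Hnrnpa3. The groups did not overlap for 7 members (13.7%), beside 10.7% of all genes. In 2 members every PB pool was higher and in 5 every PB pool was lower, beside 5.1% and 5.61% of all genes. On the TPM scale (counts divided by transcript length and scaled to the library), these counts were 12 and 0, beside 2805 and 252 of 19432 genes. The TPM scale moved the median log2 fold change of all genes to 0.11, and relative to it the members had a median of -0.017.

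**Figure D1:**
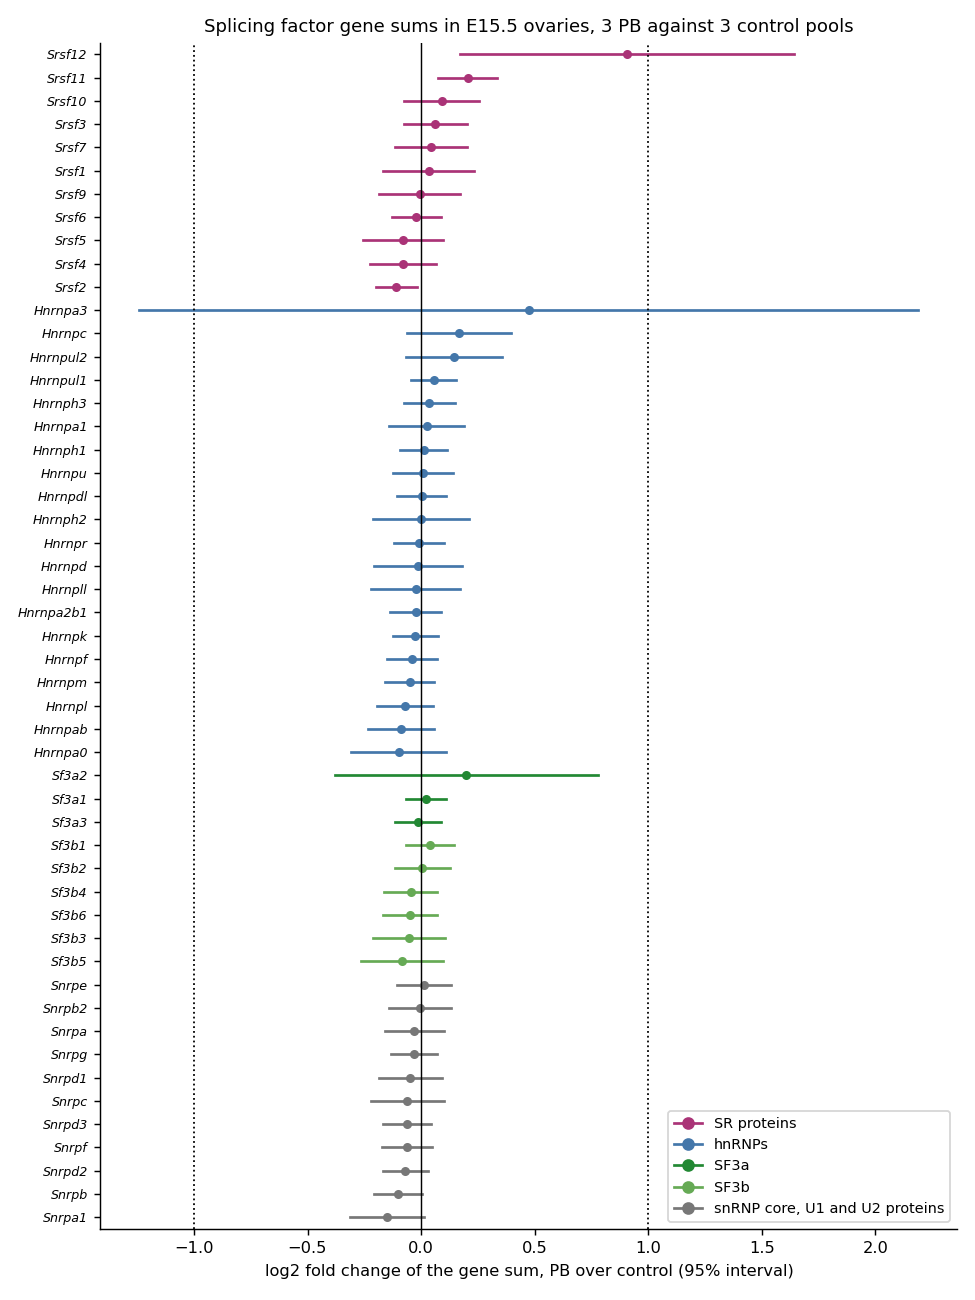
Log2 fold change of the gene sum (PB over control, x axis) with its 95% interval for each of the 51 splicing factor genes, coloured by family. Dotted lines mark a 2-fold change. The intervals of Srsf12 and Hnrnpa3 are the ones that cross a dotted line, and 48 intervals lie within 1.5-fold.

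Among the 11 SR protein genes, 6 had a higher and 5 a lower point estimate in PB, with a median log2 fold change of 0.033. On the TPM scale, 10 were higher and 1 was lower, beside 14795 and 4637 of 19432 genes. All 3 members with an unadjusted p under 0.05 were in this family. Srsf11 (chr3:158010493-158036647, minus strand) encodes an SR-like protein found in spliceosomal fractions and known for its neuronal microexon targets. It was measured at 93.1, 85.7 and 89.8 CPM in control and at 105, 107 and 98.3 CPM in PB pools. Every PB pool was above every control pool, and the log2 fold change was 0.21 ± 0.054 (SE, unadjusted p = 0.0077, FDR = 0.888). Srsf12, which encodes an SR protein reported as a splicing repressor, was the member of lowest level per length (2.08 TPM in control). It was at 4.44, 4.49 and 3.46 CPM in control and at 6.51, 11.6 and 5.14 CPM in PB pools. The groups did not overlap, but PB 2 was far above the other PB pools, and the log2 fold change of 0.91 ± 0.31 (SE) had an unadjusted p of 0.023 and an FDR of 0.888.

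Srsf2 (SC35, a general exon-binding SR protein) was the SR protein gene with the highest level per length, at 211 TPM in control. It was at 282, 280 and 290 CPM in control and at 260, 263 and 266 CPM in PB pools. Every PB pool was below every control pool, and the log2 fold change was -0.11 ± 0.038 (SE, unadjusted p = 0.025, FDR = 0.888). Srsf1, Srsf3, Srsf4, Srsf5, Srsf6, Srsf7, Srsf9 and Srsf10 had overlapping groups, with log2 fold changes between -0.080 and 0.091.

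The 20 hnRNP genes had the highest summed level, 4093 ± 257 TPM in control. Their median log2 fold change was -0.0042, and 0 reached an unadjusted p under 0.05. In CPM, 9 had a higher and 11 a lower point estimate. These counts were 20 and 0 on the TPM scale, beside 14795 and 4637 of 19432 genes. Hnrnpa1, whose protein favours exon skipping, had the highest level per length of all members, at 628 TPM in control. Its sum was 840, 903 and 845 CPM in control and 825, 953 and 855 CPM in PB pools, which overlapped (log2 fold change 0.025 ± 0.069 SE). Hnrnpc, which encodes a nuclear hnRNP that binds uridine tracts, had the smallest p of the hnRNP genes with a higher estimate. It was at 396, 316 and 394 CPM in control and at 391, 424 and 426 CPM in PB pools, so that control 2 stood below the others (log2 fold change 0.17 ± 0.095 SE, FDR = 0.888). Without control 2 the log2 fold change of Hnrnpc was 0.063, and with RefSeq transcripts only it was 0.57. Hnrnpab had the smallest p with a lower estimate, at 597, 607 and 578 CPM in control and at 531, 603 and 544 CPM in PB pools (log2 fold change -0.087 ± 0.061 SE, FDR = 0.888). Hnrnpa3, a close relative of Hnrnpa1, was the least precise member. Its sum was 106, 13.0 and 52.5 CPM in control and 41.8, 76.4 and 119 CPM in PB pools, and the half-width of its interval was 1.72 on the log2 scale. The transcript with most of its counts differed among pools, as described below.

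The 9 genes for SF3a and SF3b, which contact the branch point in the U2 snRNP, had log2 fold changes between -0.085 and 0.039, with the exception of Sf3a2. On the TPM scale, all 9 were higher, beside 14795 of 19432 genes. Sf3a3 was measured at 79.6, 80.7 and 81.7 CPM in control and at 78.7, 81.6 and 79.4 CPM in PB pools, which overlapped. Its log2 fold change was -0.014 ± 0.042 (SE). Sf3a2 was less even, at 56.7, 54.6 and 84.1 CPM in control and at 52.6, 85.7 and 86.0 CPM in PB pools. Its log2 fold change was 0.20 ± 0.24 (SE). Control 1, control 2 and PB 1 were low, and the other 3 pools were high. Leaving out control 3 gave 0.42 and leaving out control 2 gave 0.084. Sf3b1, the subunit that holds the branch point, was at 298, 297 and 302 CPM in control and at 305, 296 and 320 CPM in PB pools (log2 fold change 0.039 ± 0.044 SE). Sf3b5 had the smallest p in SF3b with a lower estimate, at 49.3, 46.1 and 44.5 CPM in control and at 42.2, 48.1 and 41.6 CPM in PB pools (log2 fold change -0.085 ± 0.075 SE). Sf3b3 had the highest level per length in SF3b (135 TPM in control) and a log2 fold change of -0.054 ± 0.066 (SE).

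Of the 11 genes for snRNP core, U1 and U2 proteins, 10 had a lower point estimate in PB, beside 9586 of 19435 genes. An unadjusted p under 0.05 was reached by 0 of the 11. The median log2 fold change was -0.061. This direction was the same with the size factors of DESeq2 (10 of 11 lower). It was not the same on the TPM scale, where 1 of 11 was lower, beside 4637 of 19432 genes. Relative to the median of all genes on the TPM scale, the family had a median of -0.058. Snrpb, which encodes the Sm proteins B and B′, had the smallest p with a lower estimate. It was at 200, 184 and 191 CPM in control and at 178, 177 and 181 CPM in PB pools, and every PB pool was below every control pool (log2 fold change -0.10 ± 0.044 SE, unadjusted p = 0.059, FDR = 0.888). Snrpa1, which encodes the U2 protein A′, was at 40.5, 38.6 and 37.0 CPM in control and at 35.2, 36.9 and 32.5 CPM in PB pools. Its groups were separated by a narrow gap (log2 fold change -0.15 ± 0.067 SE, unadjusted p = 0.064). Snrpd2 and Snrpd3, which encode Sm ring proteins, were the other 2 members without overlap, with log2 fold changes of -0.069 and -0.062. Snrpd2 had the highest level per length of the family (361 TPM in control). Snrpe was the single gene with a higher estimate, at 70.7, 73.5 and 74.3 CPM in control and at 73.9, 70.7 and 75.9 CPM in PB pools (log2 fold change 0.014 ± 0.049 SE).

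**Figure D2:**
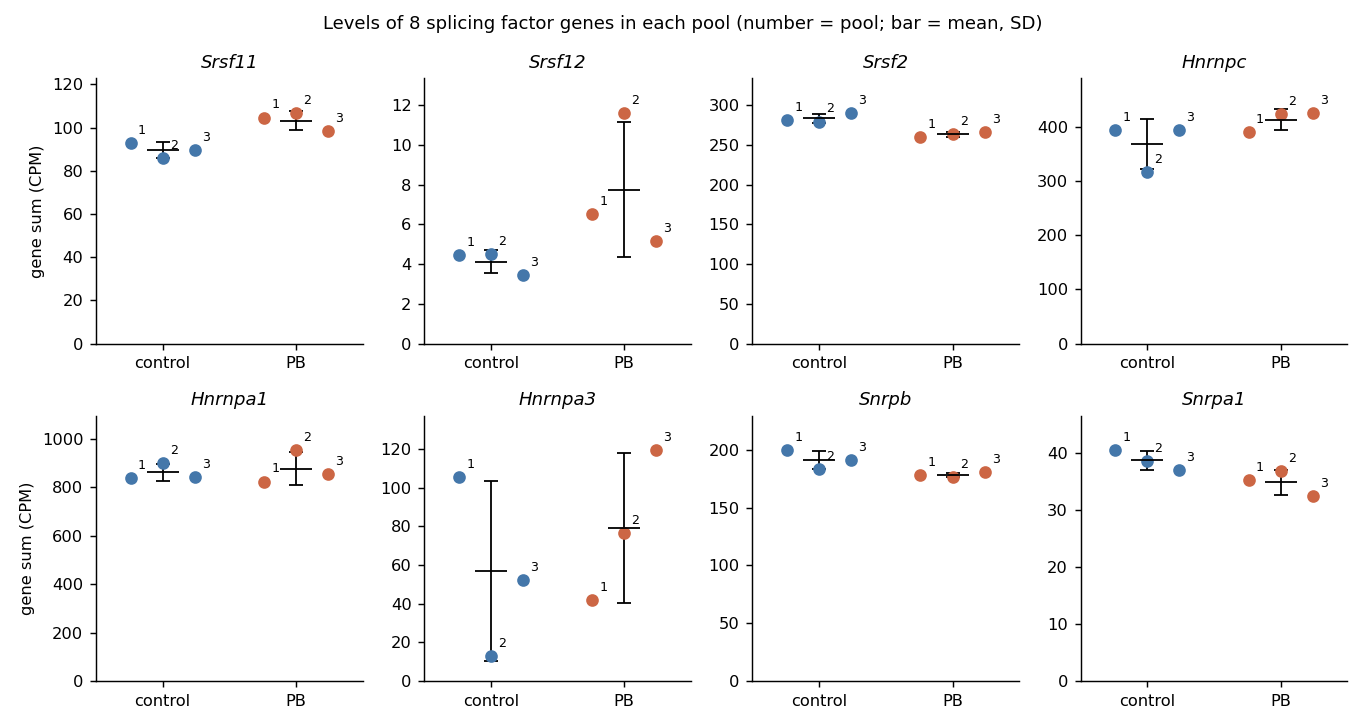
Gene sums in CPM (y axes, starting at 0) of 8 splicing factor genes in the 3 control and 3 PB pools. Numbers give the pool, the horizontal bar the mean and the whiskers the SD. In CPM, Srsf11 and Srsf12 lie higher and Srsf2, Snrpb and Snrpa1 lower in every PB pool than in every control pool (on the TPM scale the mean of Snrpb is 0.012 higher in log2), and Hnrnpa3 ranges from 13.0 to 119 CPM.

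The other genes of the splicing pathway were tested in the same fit. The list comprised U2AF and branch point factors, snRNP-associated proteins, the tri-snRNP, the LSM ring, the Prp19 complex, the minor spliceosome, SR protein kinases, SR-related proteins, other splicing regulators, the exon junction complex and nonsense-mediated decay. Of these, 125 were tested and 0 were called. Their median log2 fold change was -0.016. At an unadjusted p under 0.05, 3 were higher and 3 lower (4.8% of the 125), beside 4.46% of all genes. The higher ones were Prpf4b, an SR protein kinase, Srrm2, a scaffold of nuclear speckles, and Mbnl3, a muscleblind-like regulator, with log2 fold changes of 0.15, 0.18 and 0.10. The lower ones were Sap18, Upf3b and Smg6, with log2 fold changes of -0.098, -0.21 and -0.13.

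The second comparison asked whether single transcripts of these genes differed. Transcript counts depend on how StringTie assigned the reads that several isoforms of a gene share. Of the 281 member transcripts, 10 had no count in any pool and 247 passed the filter on low counts. Of these, 0 were called by edgeR, beside 0.0332% (17 of 51227) of all transcripts, and 8 (3.24%) had an unadjusted p under 0.05, beside 3.56% of all transcripts. The groups did not overlap for 23 of the 247 (9.31%), beside 9.95% of all transcripts. DESeq2 called 3 member transcripts of 242 (1.24%), beside 1.85% of all transcripts. These were MSTRG.6782.2 and MSTRG.6782.4 of Hnrnpa1 and XM_017312494.1 of Sf3b3.

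The share of each transcript in its gene was then compared with the diffSpliceDGE test of edgeR, which asks whether a transcript changed differently from the rest of its gene. Of 234 member transcripts tested in 38 genes, 2 were called at an FDR of 0.05, beside 0.363% (149 of 41011) of all transcripts. At an unadjusted p under 0.05, there were 5 (2.14%), beside 2.72% of all transcripts. Both were assembled transcripts of Hnrnpa1 (chr15, plus strand). MSTRG.6782.4 had 23400, 55021 and 29562 counts in control and 0, 0 and 0 counts in PB pools. It thus held 28.3%, 52.3% and 37.2% of the gene in control and was assigned no count in any PB pool (FDR = 1.1e-10). MSTRG.6782.4 passed the filter on low counts only through the control pools, where it was high, so this FDR is no independent support. Its assigned level was 334 ± 118 CPM (SD, n = 3) in control. This was at least 11970-fold lower in PB, when each PB pool is set to the floor of 3 counts that a count of 0 allows. The floor covers counting error only and not how StringTie assigned shared reads, so this value is no bound on the RNA level.

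MSTRG.6782.2 had 2035, 5788 and 5660 counts in control and 38911, 64498 and 45134 counts in PB pools. Its share of the gene rose from 2.47%, 5.50% and 7.12% to 47.6%, 66.2% and 45.4% (FDR = 0.018). The groups were far apart for both transcripts. Their sum was not: together they held 30.8%, 57.8% and 44.3% of the gene in control and 47.6%, 66.2% and 45.4% in PB pools, which overlapped. With the replicate number as a block, MSTRG.6782.2 was no longer called (FDR = 0.11), whereas MSTRG.6782.4 was. Leaving out control 1, control 2, control 3, PB 1 or PB 2 also ended the call of MSTRG.6782.2, with an FDR between 0.051 and 0.16.

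The 2 transcripts differed little in structure. Both had 11 exons and shared the third to the last of them. The first exon ended at position 103240117 in both and started at 103239792 in MSTRG.6782.2 and at 103239981 in MSTRG.6782.4, a difference of 189 bases. The second exon started 5 bases later in MSTRG.6782.2. The 4 assembled transcripts on the strand of the gene joined the upstream first exon to a second exon that differed in its start. MSTRG.6782.3 and MSTRG.6782.1 also differed from the called transcripts in having 14 exons. The starts of the second exon lay within a window of 30 bases, chr15:103240459-103240488, shown here with exonic bases in capitals.
MSTRG.6782.4: tgctctttgacgctgCCGAGGAAGCATCGC
MSTRG.6782.2: tgctctttgacgctgccgagGAAGCATCGC
MSTRG.6782.3: tgctctttgacgctgccgaggaagCATCGC
MSTRG.6782.1: tgctctttgACGCTGCCGAGGAAGCATCGC
The intron ended with AG, the usual last bases of an intron, in MSTRG.6782.2 and MSTRG.6782.3 and with TG in MSTRG.6782.4 and MSTRG.6782.1. This window lay in the annotated 5′ untranslated region, upstream of the start codon, so that the called transcripts did not differ in their coding part.

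The other Hnrnpa1 transcripts also varied between pools of 1 group. MSTRG.6782.3 held the most counts of the gene in control 1 (39597, 48.0% of the gene) and had 15142 and 16627 counts in control 2 and 3 and 17516, 10250 and 35924 counts in the PB pools. All assembled transcripts with the upstream first exon together held 82.6%, 72.9% and 66.2% in control and 70.2%, 77.3% and 85.8% in PB pools, which overlapped. The RefSeq coding transcripts NM_010447.5 and NM_001039129.4 together held between 0.625% and 7.68% of the gene.

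**Figure D3:**
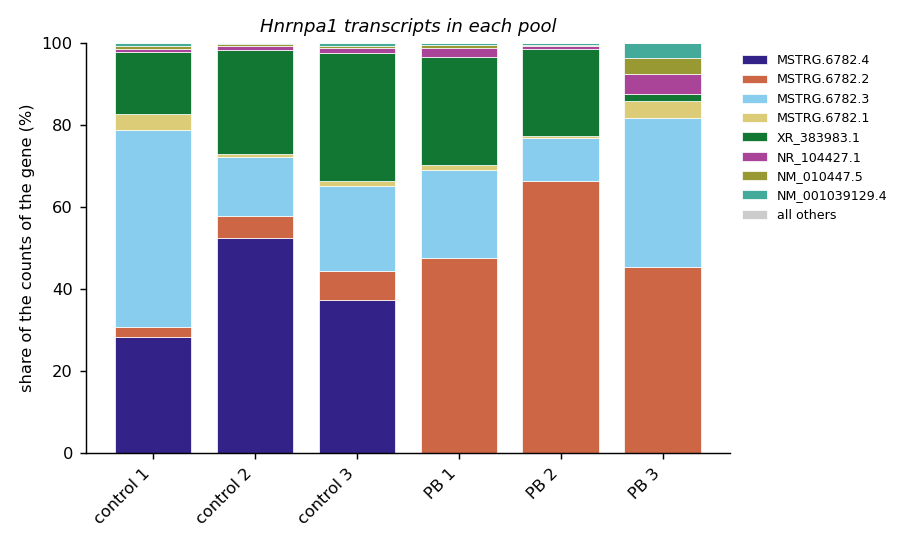
Share of the counts of Hnrnpa1 held by each transcript (stacked bars, y axis in percent) in the 3 control and 3 PB pools. MSTRG.6782.4 holds 28.3% to 52.3% in the control pools and none in the PB pools, and MSTRG.6782.2 holds 2.47% to 7.12% and 45.4% to 66.2%.

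The third comparison summed the transcripts of each gene into RefSeq coding, RefSeq non-coding and assembled classes, to ask whether the split between coding and non-coding output changed. Of 29 member genes with at least 2 classes tested, 0 were called, beside 0.502% (22 of 4379) of all genes. Of 61 member classes, 2 (3.28%) had an unadjusted p under 0.05, beside 3.9% of all classes. Both rested on control 2. Srsf11 non-coding transcripts had 1431 counts (14.3% of the gene) in control 2 and held no more than 0.175% in any other pool. The assembled class of Hnrnpd contained MSTRG.14058.8, with 5227 counts in control 2 and 0 in the other pools. Outside the SR protein genes, the class shares of Hnrnpr, and by a narrow gap those of Hnrnpu, did not overlap between the groups. The coding class of Hnrnpr held 44.6%, 43.2% and 45.3% in control and 37.0%, 32.4% and 32.4% in PB pools. Neither gene was called, and the share of non-overlapping classes over all genes was not computed.

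For the SR protein genes, the share of RefSeq non-coding transcripts overlapped between the groups except in Srsf1, and no such share was called. Each share rests on the counts of its gene, and its 95% Wilson interval was at most 1.41 percentage points wide, which covers counting error only. In Srsf3, NR_036613.1 with the poison exon held 12.6%, 12.4% and 11.2% in control and 10.8%, 11.1% and 12.4% in PB pools. In Srsf9, NR_036616.1 held 3.37%, 3.35% and 2.83% in control and 3.33%, 3.02% and 3.58% in PB pools. The groups overlapped in both genes. In Srsf7, the non-coding class held 6.04%, 5.73% and 5.69% in control and 6.26%, 2.13% and 5.53% in PB pools. PB 2 was the low pool, in which NR_036615.1 with the poison exon had 0 counts, compared with 263 to 991 counts in the other pools.

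Srsf1 was the SR protein gene whose non-coding share did not overlap between the groups. XR_388324.3 lacks 881 bases (chr11:88050096-88050976) that are exonic in the coding isoform NM_173374.4. At its start it has 610 exonic bases (chr11:88046763-88047372) that NM_173374.4 lacks. XR_388324.3 held 17.1%, 15.1% and 16.9% in control and 19.9%, 21.3% and 18.2% in PB pools. The log2 change relative to the gene was 0.20 ± 0.12 (SE), and its FDR was 1.0, so the difference did not pass the test. Its unadjusted p from diffSpliceDGE was 0.58, which is larger than this SE alone would give. Srsf2 has no RefSeq non-coding transcript, but XM_011248835.2 retains an intron of 1059 bases (chr11:116850962-116852020) that NM_011358.2 lacks. It held 4.99%, 14.4% and 6.78% of Srsf2 in control and 19.8%, 13.3% and 17.4% in PB pools. Control 2 and PB 2 overlapped. The spliced transcript NM_011358.2 was at 262, 235 and 264 CPM in control and at 204, 223 and 217 CPM in PB pools, without overlap (log2 fold change -0.24 ± 0.065 SE, unadjusted p = 0.014, FDR = 1.0).

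The remaining SR protein genes had no RefSeq non-coding class. In Srsf5, the leading transcript in all 6 pools was the assembled MSTRG.4112.6, which retains an intron of 1229 bases (chr12:80947866-80949094) and whose introns match a GENCODE transcript of the retained intron type. It held 48.8%, 53.2% and 53.4% in control and 50.7%, 50.1% and 49.2% in PB pools, which overlapped. In Srsf4, the assembled transcript MSTRG.13088.4 with 3 exons that NM_020587.2 lacks held 81.9%, 85.5% and 84.5% in control and 80.5%, 83.4% and 87.6% in PB pools. In Srsf10, the assembled class held 19.8% to 21.5% of the gene in control and 20.7% to 21.0% in PB pools. Srsf6 had 1 transcript. Of the 4 transcripts of Srsf12, NM_177774.4 had 72, 23 and 21 counts in control and 7, 2 and 13 counts in PB pools (unadjusted p = 0.015 for its share, FDR = 0.95). When a transcript had to reach 10 counts in each pool of either group to be tested, this share was called (FDR = 0.039). NM_177774.4 met that filter only through the control pools, where it was higher, so this call is no support for a difference.

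**Figure D4:**
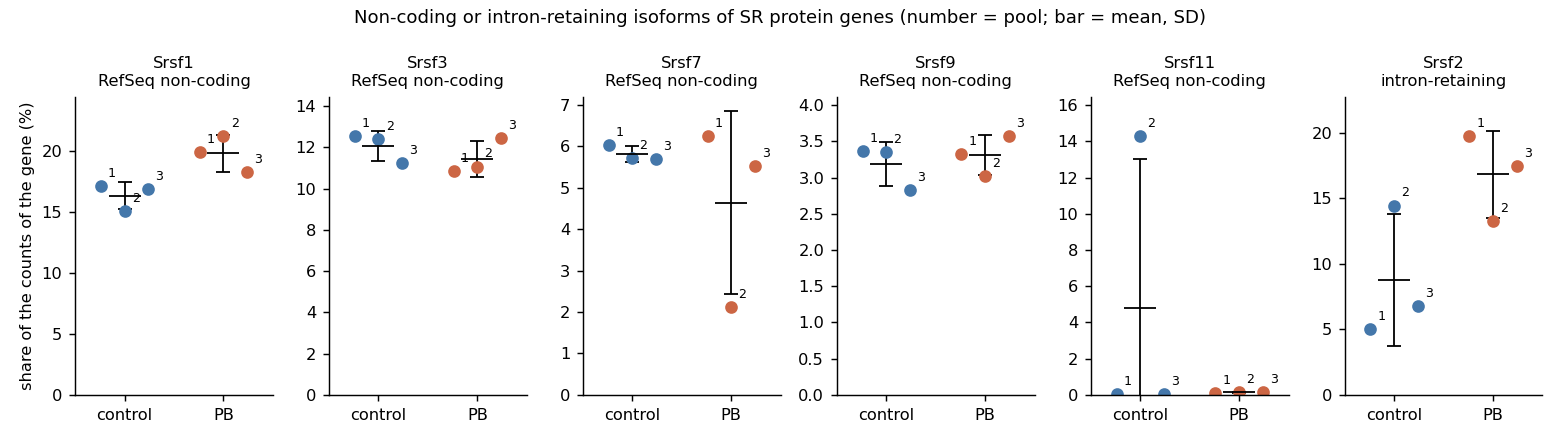
Share of the counts of the gene (y axes, percent, starting at 0) held by RefSeq non-coding transcripts of 5 SR protein genes and by the intron-retaining XM_011248835.2 of Srsf2 in each pool. Numbers give the pool, the bar the mean and the whiskers the SD, drawn to 0 where they pass it. Srsf1 is the gene whose groups do not overlap, and the high point of Srsf11 is control 2 at 14.3%.

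Hnrnpd encodes AUF1, an hnRNP that binds AU-rich mRNA, as 4 protein isoforms made with both, either or neither of the exons shown above. Among these 4 RefSeq isoforms, NM_001077265.2 with both exons held 26.5%, 30.4% and 26.1% in control and 25.5%, 42.1% and 42.6% in PB pools. PB 2 and PB 3 were higher than every control pool and PB 1 was lower. The 57-base exon was included in 47.7%, 48.7% and 46.4% of the counts in control and in 44.9%, 58.6% and 58.0% in PB pools. The 147-base exon was included in 52.8%, 60.5% and 50.2% in control and in 49.98%, 64.6% and 65.9% in PB pools. Both ranges overlapped because of PB 1.

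Some members had a different leading transcript in different pools, among them 12 of 20 hnRNP genes. Among genes with at least 2 transcripts and at least 10 counts in each pool, the same transcript held most counts in all 6 pools in 22 of 39 members (56.4%), beside 58.8% of 13119 genes. This held for 7 of 10 SR protein genes, for 8 of 20 hnRNP genes, for 0 of 1 SF3a gene, for 2 of 3 SF3b genes and for 5 of 5 genes for snRNP core, U1 and U2 proteins. In 0 members and 46 genes overall (0.351%) did 1 transcript lead in all control pools and another in all PB pools.

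Hnrnpk, whose protein binds cytidine-rich RNA, was led by different transcripts in different pools. MSTRG.4873.7 had 24732, 59772 and 46063 counts in control and 0, 50410 and 0 counts in PB pools. MSTRG.4873.8 had 36582 counts in control 1, MSTRG.4873.9 had 55823 counts in PB 3, and both had 0 counts elsewhere. XM_017315395.1 had 53802 counts in PB 1 and 3101 to 11347 in the other pools. MSTRG.4873.9 lacks 3 bases that are exonic in MSTRG.4873.7. The 4 transcripts together held 97.6%, 87.2% and 86.6% in control and 84.1%, 87.0% and 87.95% in PB pools, and the gene sum stayed between 640 and 672 CPM.

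Sf3b1 counts lay mostly on XM_017312973.1 in control 1, control 2 and PB 3, on NM_031179.2 in control 3 and PB 2 and on XM_017312972.1 in PB 1, each with 60.5% to 97.4% of the gene. In Sf3b3, XM_017312494.1, which retains 1936 intronic bases, had 113, 190 and 174 counts in control and 283, 2610 and 3953 counts in PB pools. The groups did not overlap, PB 1 was close to control, and the log2 fold change was 3.76 ± 0.96 (SE, FDR = 0.93 with edgeR and 0.0066 with DESeq2). XM_006530520.3, which differs from it by the absence of the retained bases, had 6179, 139 and 102 counts in control and 146, 3838 and 4964 counts in PB pools. The 2 transcripts together had 6292 counts in control 1, 6448 in PB 2 and 8917 in PB 3, and 276 to 429 in the other 3 pools. Hnrnpc counts moved in control 2 to MSTRG.5584.1 (14580 counts, 0 elsewhere) and MSTRG.5584.2 (15623 counts, 457 to 1149 elsewhere). Hnrnpa3 was led by 4 different transcripts in the 6 pools, with 48.7% to 99.6% of its counts.

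**Figure D5:**
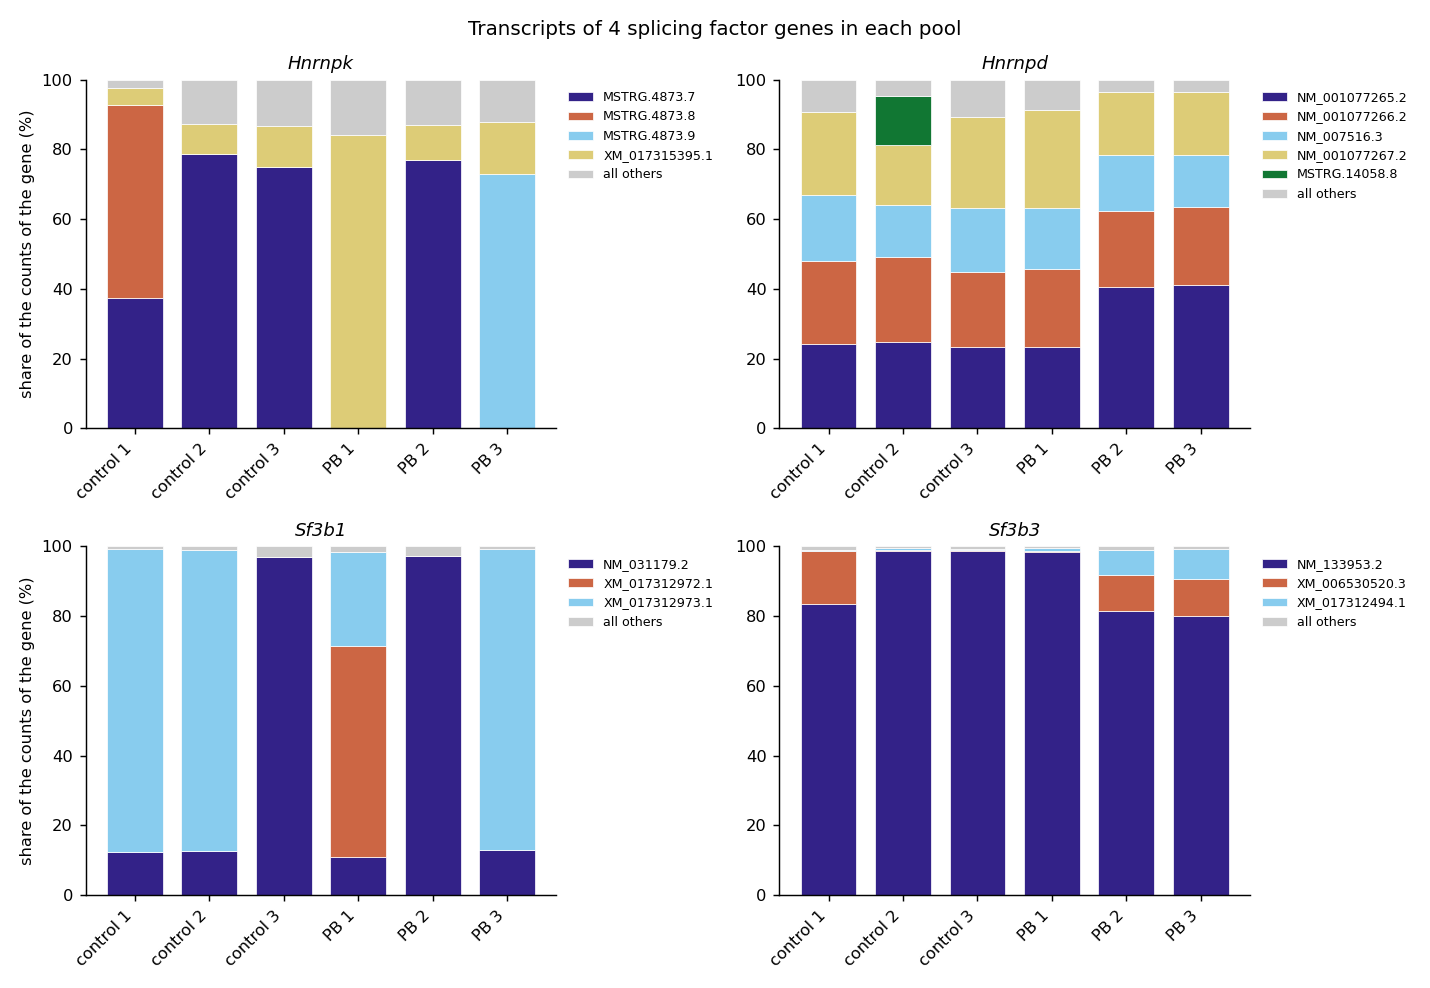
Share of the counts of Hnrnpk, Hnrnpd, Sf3b1 and Sf3b3 held by their main transcripts (stacked bars, y axes in percent) in the 3 control and 3 PB pools. The leading transcript of Hnrnpk and Sf3b1 differs between pools of the same group, and the inner isoforms of Sf3b3 are high in control 1, PB 2 and PB 3.

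The remaining transcripts named for their small p in the transcript test had an FDR of 1.0. Higher in PB were NM_015782.3 of Snrpa (the U1 protein A), XM_017315395.1 of Hnrnpk and NM_001166430.1 of Hnrnpf, with log2 fold changes of 0.20, 2.1 and 0.51. The groups overlapped for XM_017315395.1, which was high in PB 1 and had a log2 fold change of 0.57 without that pool. For NM_001166430.1, the value without PB 1 was 0.26. Lower in PB were NM_177301.5 of Hnrnpl, with 125, 176 and 187 CPM in control and 97.6, 129 and 94.8 CPM in PB pools, and XM_017320416.1 of Hnrnpr, with 39.1, 35.3 and 50.01 CPM in control and 32.9, 30.0 and 27.1 CPM in PB pools. The groups overlapped for the former and not for the latter, with log2 fold changes of -0.60 ± 0.21 and -0.47 ± 0.16 (SE). The assembled classes of Snrpb2 and Hnrnpm were among the 5 classes with the smallest p, and they rested on PB 1 (282 counts of MSTRG.10701.2, 12 to 34 elsewhere) and on PB 2 (13200 counts of MSTRG.7818.4, 0 elsewhere). Transcripts on the strand opposite to the RefSeq transcripts were present in 7 members and held at most 3.33% of a gene.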

How the data were processed

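Strand-specific polyA RNA libraries (NEBNext Ultra II Directional) of 3 control and 3 PB pools were sequenced in pairs. Alignment (HISAT2 2.1.0, mm10) and transcript assembly, merging and quantification (StringTie 1.3.5, RefSeq) were done by the authors. The deposited values are raw transcript counts from prepDE, without normalization. A deposited table of the authors' DESeq2 1.30.0 comparison gave the gene names, and its 6 normalized columns per pool, log2 fold changes and p-values were not used.

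Groups were taken from sample titles. Counts were summed per gene name and tested with edgeR 4.0.16 (R 4.3.3, limma 3.58.1, data.table version 1.17.8): TMM, filterByExpr (minimum count 10, minimum total 15), quasi-likelihood F-test, calls at 2-fold and FDR 0.05 (Benjamini-Hochberg over all features). Shares were tested with diffSpliceDGE. SE is the log2 change over the square root of F. For shares, the p-value can be larger than this SE would give. CPM are TMM-scaled. TPM used exon lengths. DESeq2 1.42.0 and other normalizations, filters, thresholds, a replicate block and omission of each pool were alternatives. The floor was 3 counts, or 0.0253 to 0.0311 CPM per transcript. The tests were also run on simulated counts with less spread between pools than the gene sums and transcript counts here. Those runs therefore do not show which changes could be detected in these data.

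Named by rule were, per family, the genes with the smallest p in each direction and the highest TPM, the 5 transcripts with the smallest p in each direction, the 5 classes and 5 shares with the smallest p, and every SR protein gene. Srsf12, Hnrnpa3, Snrpa1, Snrpd3, the alternative exons and the genes with exchanged leading transcripts were named after their values were seen. The class shares of Hnrnpr and Hnrnpu were also named after their values were seen. The members and lists were chosen with earlier results of these data known. Separate litters are stated for most experiments but not for these pools in particular, so p-values measure the spread between pools.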

Additional observations from a re-analysis of the deposited data

How the results depend on the processing

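The count of 0 called gene sums and of 0 genes with a changed class split held in every alternative run. For transcripts, the count of 0 became 3 with the DESeq2 Wald test and 1 at an FDR of 0.1, and leaving out a pool gave 0. For transcript shares, the count of 2 became 1 with the replicate block, with limma on log2 ratios and with parts of at least 5% of their gene, and 1 to 2 when 1 pool was left out. Without PB 2, the second call was MSTRG.4873.7 of Hnrnpk in place of MSTRG.6782.2. A filter requiring 10 counts in each pool of either group gave 3 calls, with NM_177774.4 of Srsf12 added, which met it through the control pools only. MSTRG.6782.4 of Hnrnpa1 was called in all of these fits, and it passed the filters on low counts through the control pools only. Without a filter, 3 shares were called, and MSTRG.6782.2 was not among them (FDR = 0.091). The median log2 fold change ranged from -0.039 to -0.0086 over leaving out each pool.

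With RefSeq transcripts only, the log2 fold change of the gene sum was -0.21 for Hnrnpa1 and -0.23 for Sf3a2, both reversed. Leaving out 1 pool gave ranges that crossed 0 for the gene sums of Hnrnpa1 (-0.039 to 0.062) and Snrpe (-0.011 to 0.041), for the classes of Srsf11 (-3.90 to 1.00), Snrpb2 (-0.62 to 1.74), Hnrnpc (-2.23 to 0.14) and Hnrnpm (-0.083 to 1.3), and for the share of MSTRG.5584.2 (-2.42 to 0.16). None of these was called. The cause was not tested.

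Pools with the same number correlated at 0.10, 0.22 and 0.036 in their deviations from the group means. Pools with different numbers correlated at -0.21 to 0.15. These values do not decide whether the numbers pair the pools, and the main tests used no pairing. The replicate block changed no call other than that of MSTRG.6782.2. Omission of opposite-strand transcripts, added after seeing the data, gave 0 called gene sums. Transcript counts were less precise than gene sums, with a common biological coefficient of variation of 98.4% beside 20.9% for gene sums.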
